A study of Mus musculus with 14 samples.

Results

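Genes of cell division were followed through tibia RNA of ovariectomized mice by 44 genes, 33 that act in mitosis and 11 that act in DNA replication. They were chosen by symbol from the deposited table of counts, which holds 55291 symbols, and all 44 were among the 21761 genes with enough counts to be tested. Wild-type female C57Bl/6 mice were either sham operated (sham, n = 3 libraries) or ovariectomized (OVX), which removes the ovaries as a source of sex steroids. The ovariectomized mice then received zoledronic acid (OVX-ZA, n = 3), 3'(3'hydroxyphenyl) propionic acid (OVX-PPA, n = 2), hippuric acid (OVX-HA, n = 3) or, as the control, PBS (OVX-PBS, n = 3), starting 2 to 4 days after surgery and lasting 8 weeks. Hippuric acid is the glycine conjugate of benzoic acid, 3'(3'hydroxyphenyl) propionic acid carries a hydroxylated ring on a propionic acid, and zoledronic acid is a bisphosphonate that blocks osteoclasts. The sources used here give neither doses nor ages, nor what sham mice received beyond surgery. Whether each library came from its own animal is not stated in the labels, so p-values measure the spread between these samples, which may be technical.

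In the tibia, dividing cells are found mostly in the marrow, where erythroid, B cell and neutrophil precursors divide before they mature, and in the growth plate. A dividing cell first loads the MCM helicase on its DNA, copies the DNA in S phase with the sliding clamp PCNA and a supply of deoxynucleotides from ribonucleotide reductase and thymidylate synthase, and then enters mitosis under cyclin B and CDK1. Replication genes are known targets of E2F factors. Mitotic genes are known for promoters with CCAAT boxes, bound by NF-Y, and a cell cycle genes homology region (CHR), bound by the MuvB complex with B-Myb or FOXM1. In RNA from a whole tissue, fewer dividing cells and less of these RNAs per dividing cell cannot be told apart.

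Promoter sequences of the members are shown because the mitotic and the replication members differed in the motifs they hold. Of the 44 members, 39 had at least 1 promoter in the RefSeq table of build GRCm38.p6 (mm10 coordinates), 42 promoters in all, each reaching from 250 bases before to 50 bases after the start. Ccna2, Aurkb, Kif20a, Tpx2 and Mcm4 were not in that table. The motifs were the CCAAT box (CCAAT) and the E2F element (TTTCCCGC, TTTCGCGC, TTTGCCGC or TTTGGCGC), searched on both strands. The CHR was searched on both strands as TTTGAA. It was also searched as the variant TTCGAA. A further variant of it was TTTAAA. Each sequence below runs 5′ to 3′ on the strand of its gene over the 150 bases before the start and the first 30 transcribed bases, and the capitals mark the motifs. Ccnb2 (chr9:70421525-70421704, - strand), Cdk1 (chr10:69352883-69353062, - strand) and Ube2c (chr2:164769779-164769958, + strand) are mitotic. Mcm6 (chr1:128359676-128359855, - strand), Mcm3 (chr1:20820283-20820462, - strand) and Hells (chr19:38930840-38931019, + strand) act in replication.
Ccnb2: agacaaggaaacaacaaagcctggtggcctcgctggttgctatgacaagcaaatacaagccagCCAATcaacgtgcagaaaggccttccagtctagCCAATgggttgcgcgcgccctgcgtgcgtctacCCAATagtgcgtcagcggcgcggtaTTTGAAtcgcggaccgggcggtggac
Cdk1: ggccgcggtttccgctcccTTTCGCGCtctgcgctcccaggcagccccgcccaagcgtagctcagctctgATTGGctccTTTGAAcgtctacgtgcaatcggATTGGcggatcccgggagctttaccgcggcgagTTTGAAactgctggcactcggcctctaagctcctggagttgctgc
Ube2c: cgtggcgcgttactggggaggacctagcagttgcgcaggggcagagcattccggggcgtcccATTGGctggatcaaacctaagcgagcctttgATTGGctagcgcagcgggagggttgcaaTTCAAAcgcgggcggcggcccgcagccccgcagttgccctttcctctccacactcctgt
Mcm6: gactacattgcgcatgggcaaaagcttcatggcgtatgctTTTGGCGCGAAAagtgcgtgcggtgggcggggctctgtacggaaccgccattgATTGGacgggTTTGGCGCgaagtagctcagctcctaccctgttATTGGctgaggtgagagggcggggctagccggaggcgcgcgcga
Mcm3: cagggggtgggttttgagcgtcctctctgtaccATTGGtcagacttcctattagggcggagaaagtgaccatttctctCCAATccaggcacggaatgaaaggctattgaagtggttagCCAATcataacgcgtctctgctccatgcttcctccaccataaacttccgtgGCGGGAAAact
Hells: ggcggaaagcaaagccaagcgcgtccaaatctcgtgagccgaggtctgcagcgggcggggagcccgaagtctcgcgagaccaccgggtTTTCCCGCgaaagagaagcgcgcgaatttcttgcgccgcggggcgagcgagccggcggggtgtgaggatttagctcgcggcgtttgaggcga
Within the 300-base promoters, a CHR was found in 29 of 31 mitotic promoters (93.5%) and 4 of 11 replication promoters (36.4%), against 28.8% of all 32851 promoters in the table. Both mitotic promoters without it belonged to Nuf2, a kinetochore protein, and Nusap1, a spindle protein. The E2F element had the opposite order, with 2 of 31 mitotic promoters (6.45%), 5 of 11 replication promoters (45.5%) and 2.26% of all promoters. Both mitotic promoters with it belonged to Cdk1 and Kif15, and the replication promoters with it belonged to Mcm3, Mcm5, Mcm6, Mcm7 and Hells. CCAAT boxes were found in 77.4% of mitotic and 81.8% of replication promoters, against 37.4% of all. A CCAAT box together with a CHR was held by 77.4% of mitotic, 36.4% of replication and 11.3% of all promoters. In mitotic promoters the first base of a CCAAT box lay at a median of -71 and that of a CHR at -18 from the first transcribed base, which is counted as 0. In the promoter of Mcm6 the first E2F element overlaps another one on the opposite strand. These matches are letters in a window and not measured binding sites, and their link to the RNA levels was not tested.

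**Figure D1:**
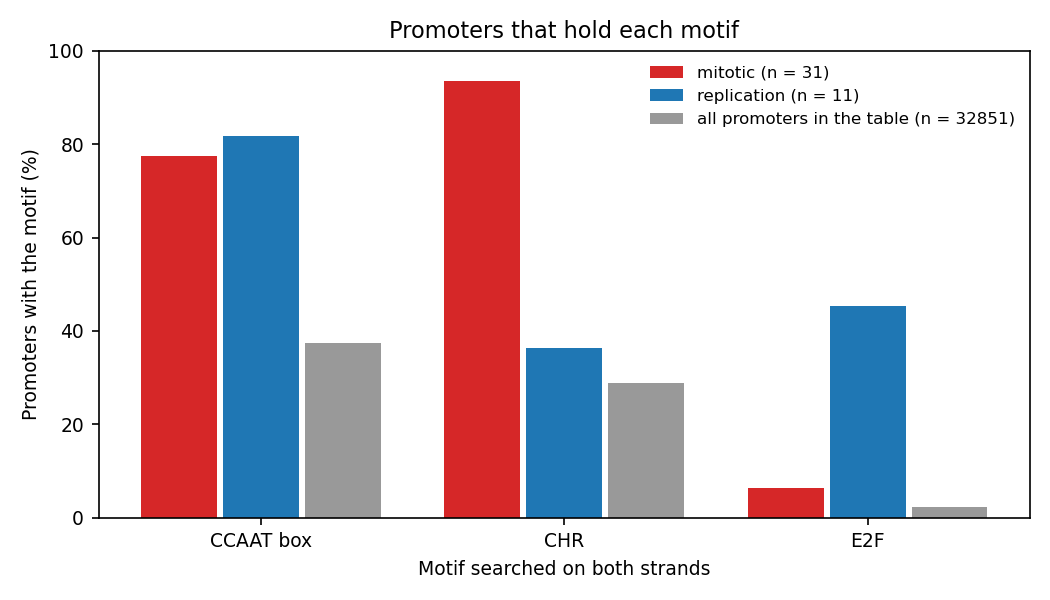
The share of promoters (%) that hold the CCAAT box, the CHR or the E2F element is drawn for 31 mitotic, 11 replication and all 32851 promoters of the table. The CHR bar is highest for mitotic promoters (93.5%) and the E2F bar for replication promoters (45.5%).

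Levels are given as CPM, counts scaled to the library total and by TMM factors, and between genes only per kilobase of exon. Total estimated counts (M) ran from 11.9 to 25.1 for OVX-ZA, 18.7 to 29.7 for OVX-PPA, 31.3 to 35.4 for OVX-HA, 20.1 to 35.2 for OVX-PBS and 29.2 to 32.6 for sham. A pair of libraries stood apart from the other 12 by having few transcripts of the central nervous system. Summed over 9 markers these read 114 CPM in OVX-PBS replicate 1 and 139 CPM in OVX-HA replicate 2, against 695 to 2020 CPM elsewhere. The myelin gene Mobp read 5.55 and 1.17 CPM there and 153 to 507 CPM elsewhere. Those were also the libraries with the highest levels of most cell cycle genes, so the class medians of each comparison with OVX-PBS or OVX-HA are given with and without them. Transcripts of skeletal muscle, 23465 to 53473 CPM in sum over 6 markers, were abundant in all 14 libraries.

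Over the median of 14 libraries, the highest member per kilobase was Ube2c, the ubiquitin-conjugating enzyme of the anaphase-promoting complex, at 210 CPM per kb. Across libraries Ube2c did not follow the other members (r = -0.027) but did follow skeletal muscle markers (r = 0.90). Whether its level reflects dividing cells was not tested. Rrm2 (42.5), the regulated subunit of ribonucleotide reductase, Mki67 (42.5), which coats mitotic chromosomes and is the usual marker of proliferation, and Pcna (41.5 CPM per kb) came next. Cyclin genes Ccnb2 and Ccna2 read 25.8 and 25.6 CPM per kb, and Birc5, the survivin subunit of the chromosomal passenger complex, 18.5. The lowest were Hells, a chromatin remodeler of the replication class, at 1.74 and Ttk, the spindle checkpoint kinase MPS1, at 1.71 CPM per kb. Replication members had a median of 13.2 CPM per kb and mitotic members of 6.48. With the longest transcript in place of the union of exons the medians were 17.1 and 10.6. By that length Ube2c (249 CPM per kb) stayed highest, followed by Pcna (65.6), Rrm2 (53.7), Mki67 (42.5) and Ccna2 (35.3). Hells (2.13) was then the lowest, with Ttk (2.93) next.

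Mki67 (ENSMUSG00000031004, mm10 chromosome 7, 135689784-135716361, - strand) read 311, 466 and 490 CPM in sham replicates 1 to 3 and 721, 421 and 434 in OVX-PBS. It read 323, 1065 and 327 CPM in OVX-HA, 563 and 471 in OVX-PPA, and 309, 350 and 312 in OVX-ZA. OVX-HA replicate 2 stood above all other libraries, OVX-PBS replicate 1 came next, and the other OVX-HA libraries lay near the 3 OVX-ZA libraries. Ccna2, the cyclin A gene that spans S phase and entry into mitosis, read 74.1, 120 and 108 CPM in sham, 167, 102 and 113 in OVX-PBS, 78.0, 240 and 76.3 in OVX-HA, 129 and 114 in OVX-PPA, and 83.2, 83.7 and 85.1 in OVX-ZA. The same libraries were the highest and the next, and sham replicate 1 was the lowest, where for Mki67 the lowest was OVX-ZA replicate 1.

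Aurkb, the kinase of the chromosomal passenger complex, read 19.0, 32.8 and 29.5 CPM in sham, 35.0, 26.3 and 28.1 in OVX-PBS, 19.4, 57.1 and 19.1 in OVX-HA, 28.4 and 29.99 in OVX-PPA, and 21.4, 21.3 and 20.6 in OVX-ZA. Birc5 of the same complex read 47.2, 72.7 and 70.9 CPM in sham, 110, 67.5 and 61.2 in OVX-PBS, 47.9, 164 and 49.4 in OVX-HA, 85.5 and 64.9 in OVX-PPA, and 53.4, 49.3 and 50.4 in OVX-ZA. For both genes every OVX-ZA library was below every OVX-PBS and OVX-PPA library, and sham and OVX-HA overlapped OVX-ZA.

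Kif11, the kinesin that pushes spindle poles apart, read 45.2, 74.9 and 63.2 CPM in sham, 89.99, 57.3 and 71.9 in OVX-PBS, 42.6, 123 and 50.3 in OVX-HA, 72.7 and 80.4 in OVX-PPA, and 50.5, 57.4 and 46.9 in OVX-ZA. Here OVX-PBS replicate 2 and OVX-ZA replicate 2 nearly coincide, so these groups overlap. Cenpa, the histone H3 variant of centromeres, read 38.1, 62.3 and 54.8 CPM in sham, 75.3, 53.8 and 50.6 in OVX-PBS, 41.2, 107 and 37.5 in OVX-HA, 60.0 and 52.7 in OVX-PPA, and 42.9, 41.7 and 37.6 in OVX-ZA. Prc1, which bundles microtubules of the central spindle, read 35.7, 67.5 and 61.2 CPM in sham, 80.7, 50.7 and 55.8 in OVX-PBS, 40.3, 117 and 40.4 in OVX-HA, 65.4 and 62.3 in OVX-PPA, and 42.6, 39.8 and 37.3 in OVX-ZA. In Cenpa and Prc1 the OVX-ZA libraries lay below all OVX-PBS libraries without overlap.

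Replication members gave nearly the same picture. Mcm6, a subunit of the helicase, read 58.9, 84.9 and 71.4 CPM in sham, 103, 77.8 and 85.4 in OVX-PBS, 60.1, 147 and 52.4 in OVX-HA, 82.1 and 88.1 in OVX-PPA, and 60.4, 68.8 and 54.7 in OVX-ZA. Rrm2 read 83.98, 140 and 128 CPM in sham, 196, 115 and 121 in OVX-PBS, 91.3, 294 and 88.6 in OVX-HA, 161 and 126 in OVX-PPA, and 94.997, 97.8 and 89.4 in OVX-ZA. Pcna read 73.3, 111 and 102 CPM in sham, 133, 101 and 98.1 in OVX-PBS, 74.7, 195 and 76.9 in OVX-HA, 125 and 107 in OVX-PPA, and 79.7, 87.8 and 82.0 in OVX-ZA. Each was highest in OVX-HA replicate 2, and in each the OVX-ZA libraries were below the OVX-PBS and OVX-PPA libraries without overlap.

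**Figure D2:**
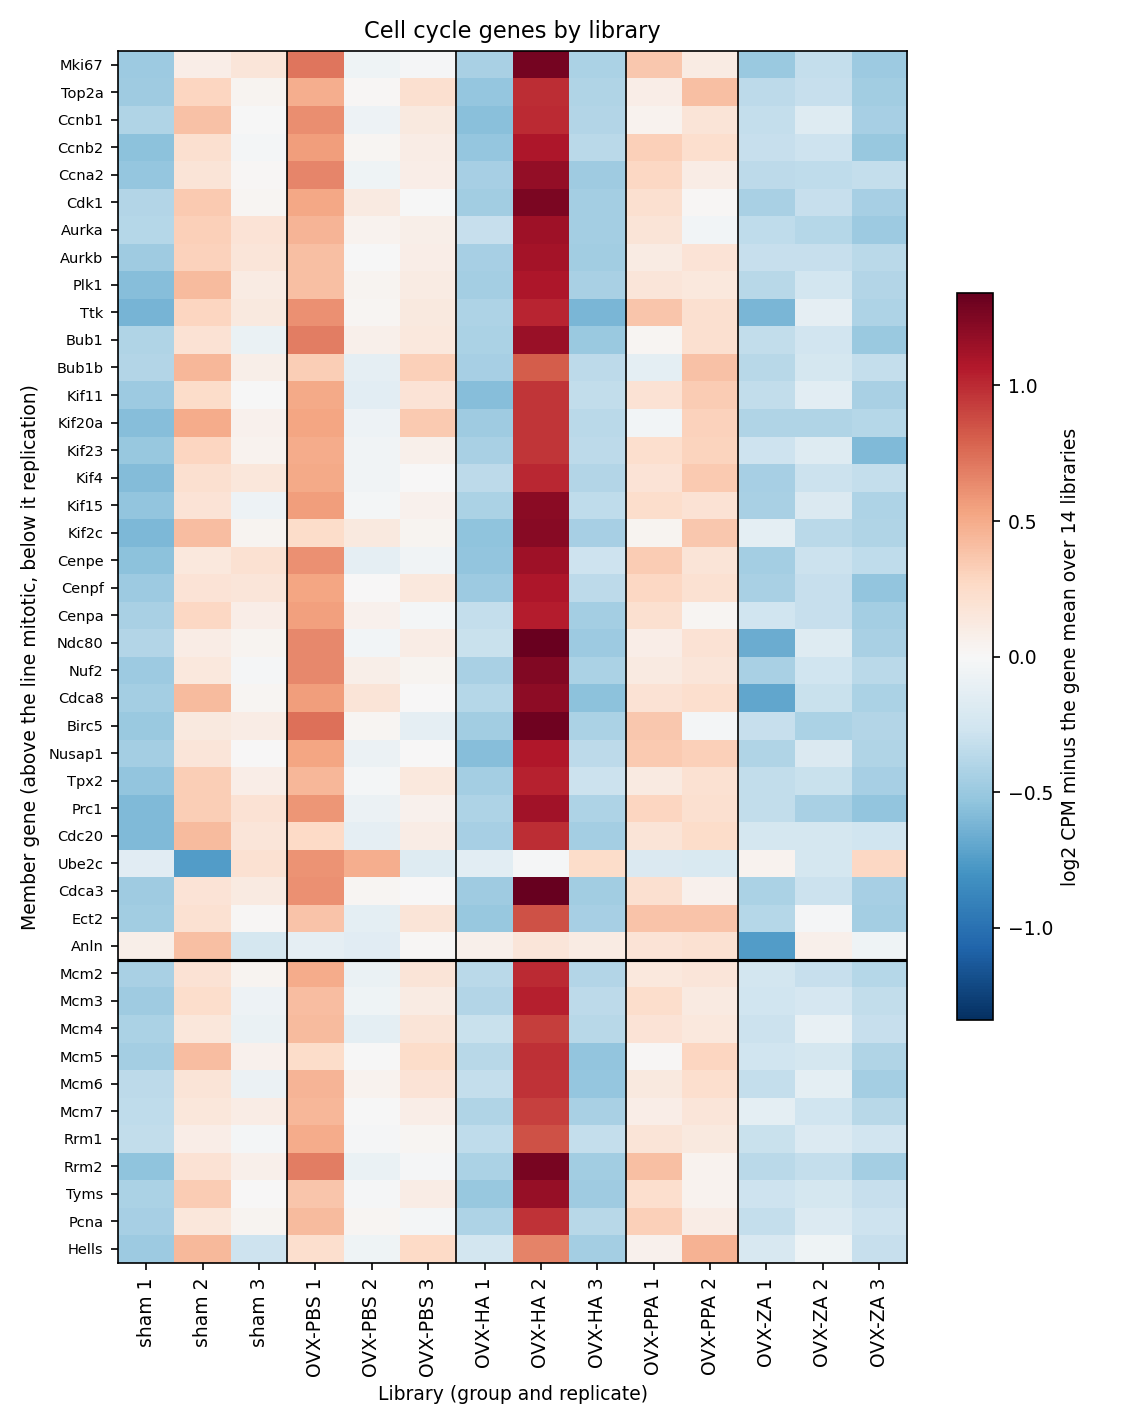
Each row is a member and each column a library, and the color gives log2 CPM minus the mean of that gene over 14 libraries. The OVX-HA replicate 2 column is the highest for 42 of 44 members, the OVX-ZA columns are mostly below the gene means, and Ube2c and Anln break the pattern of the other rows.

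Nearly all members varied together across libraries. The Pearson correlation of log2 CPM between pairs of members had a median of 0.959 over 946 pairs and 14 libraries, and of 0.914 in the 12 libraries with nervous transcripts. It was 0.956 among mitotic members, 0.969 among replication members and 0.960 between the classes, so members correlated about as much between the classes as within them. With the mean of the other members, 41 of 44 members correlated above 0.9 in 14 libraries and 40 in 12 libraries. Mcm2, another helicase subunit, was closest to the rest (0.992), and Bub1b, a checkpoint kinase, was the lowest of the 41 (0.922). These correlations are descriptions, since all genes share the libraries and their tissue mixture.

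OVX-HA replicate 2 held the highest value of 42 of 44 members, and 21.8% of all tested genes were highest in it. For 36 members the 2 highest libraries were OVX-HA replicate 2 and OVX-PBS replicate 1, those poor in nervous transcripts. Sham replicate 1 was lowest for 21 members, OVX-HA replicate 1 for 10, OVX-HA replicate 3 for 5, OVX-ZA replicate 1 for 4, OVX-ZA replicate 3 for 3 and sham replicate 2 for 1. Averaged over the 44 members, log2 CPM was 4.93, 5.62 and 5.43 in sham and 5.87, 5.37 and 5.47 in OVX-PBS. In OVX-HA it was 4.97, 6.41 and 4.99, in OVX-PPA 5.57 and 5.57, and in OVX-ZA 5.03, 5.14 and 5.003. The OVX-ZA and OVX-PPA libraries lay close together within their groups, and those of sham and OVX-HA spread widely. From the lowest to the highest library, single members ranged from 2.21-fold to 3.98-fold, with a median of 3.01-fold.

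**Figure D3:**
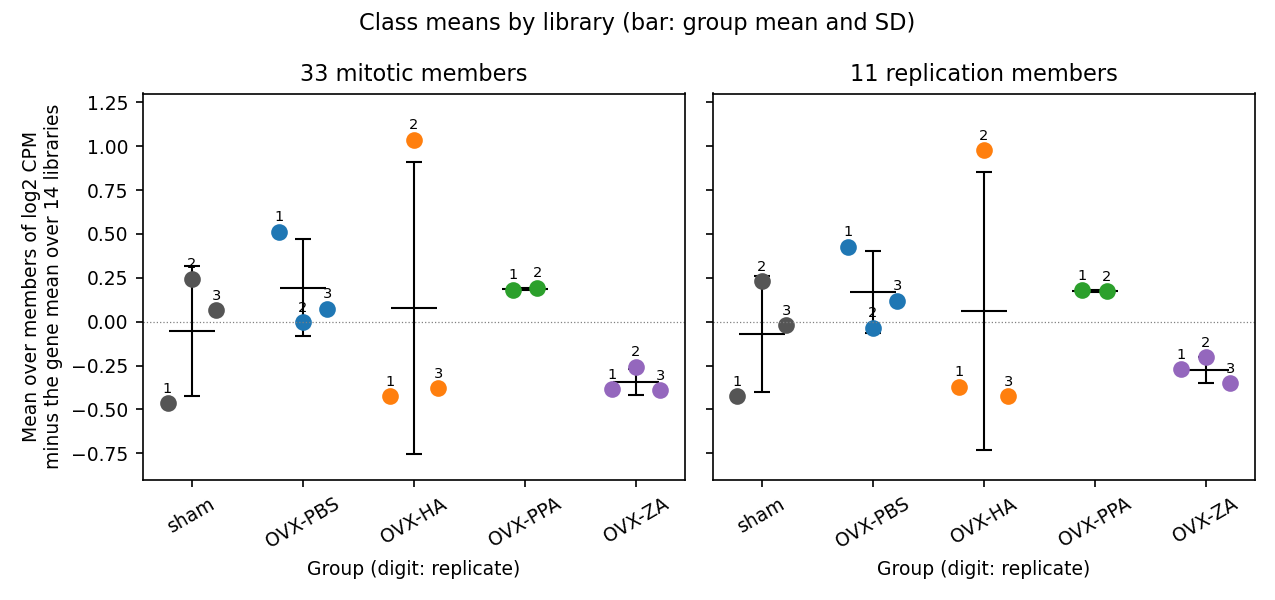
Points are libraries, with the replicate number above, and the vertical axis is the mean over 33 mitotic or 11 replication members of log2 CPM minus the gene mean over 14 libraries, with the group mean and SD as bars. In both classes OVX-HA replicate 2 is the highest library and the 3 OVX-ZA libraries lie below all OVX-PBS and OVX-PPA libraries.

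Ube2c, Anln and Hells were the members that followed the others least. Ube2c (ENSMUSG00000001403, mm10 chromosome 2, 164769898-164778822, + strand) read 516, 342 and 664 CPM in sham, 873, 806 and 510 in OVX-PBS, 522, 568 and 682 in OVX-HA, 504 and 497 in OVX-PPA, and 593, 487 and 694 in OVX-ZA. Its groups overlapped apart from OVX-PPA, which lay below OVX-PBS and OVX-HA, and its correlation with the other members was -0.027 (-0.40 in 12 libraries). With 6 skeletal muscle markers it was 0.90 in 14 and 0.95 in 12 libraries, a comparison chosen after its values were seen. Its promoter holds CCAAT boxes and a CHR, as printed above.

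Anln (ENSMUSG00000036777, mm10 chromosome 9, 22332012-22389188, - strand), the scaffold anillin of the cytokinetic ring, read 49.3, 61.9 and 39.8 CPM in sham, 42.9, 41.9 and 47.1 in OVX-PBS, 49.0, 52.4 and 50.5 in OVX-HA, 53.1 and 53.8 in OVX-PPA, and 27.7, 49.0 and 44.9 in OVX-ZA. Its correlation with the other members was 0.28 (0.35 in 12 libraries), and with 9 markers of the central nervous system 0.16 in 14 and 0.88 in 12 libraries, also a comparison chosen after its values were seen. Hells (ENSMUSG00000025001, mm10 chromosome 19, 38930915-38971051, + strand) read 9.32, 17.5 and 10.7 CPM in sham, 15.2, 12.5 and 15.6 in OVX-PBS, 11.0005, 20.6 and 9.47 in OVX-HA, 13.5 and 18.03 in OVX-PPA, and 11.2, 12.5 and 10.5 in OVX-ZA. It correlated with the others at 0.86 (0.83 in 12 libraries) and followed them least of the replication class. Which cells gave the Ube2c and Anln reads was not tested.

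Mitotic and replication members were compared in spread and in their gap within a library. The SD of log2 CPM over 14 libraries had a median of 0.465 for mitotic and 0.402 for replication members, and of 0.309 and 0.252 in 12 libraries. The gap, the mean log2 CPM of mitotic members minus that of replication members, also carries gene lengths and is read only across libraries. It averaged -0.612 ± 0.0380 (SD, n = 3) for OVX-ZA and -0.532 ± 0.0119 (n = 2) for OVX-PPA. The gap averaged -0.525 ± 0.0632 for OVX-HA, -0.518 ± 0.0656 for OVX-PBS and -0.523 ± 0.0636 (n = 3 each) for sham. Its range was -0.656 to -0.583 in OVX-ZA and -0.597 to -0.456 in the other groups, so the OVX-ZA libraries were the lower end with overlap. The spread of the gap was small beside that of each class, whose mean had an SD within groups of 0.450 for mitotic and 0.422 for replication members.

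The effect of ovariectomy was asked by comparing OVX-PBS with sham. Group means of the cell cycle genes were slightly higher in OVX-PBS and the libraries of the groups overlapped for every member. The log2 difference was positive for 43 of 44 members, against 51.4% of all genes, with a median of 0.22 for mitotic and 0.24 for replication members and 0.0079 for all genes. edgeR quasi-likelihood with Benjamini-Hochberg (BH) adjustment called 0 of 44 members, where 0% of all genes were called, and 0 had an unadjusted p below 0.05. DESeq2 called 0 members as well, and 1 of 21745 genes. Every OVX-PBS library was above every sham library for 0 members, against 4.03% of all genes. By role the medians ran from 0.14 for the 6 mitotic and checkpoint kinases to 0.29 for Mki67 and Top2a, the topoisomerase that untangles chromosomes, leaving aside the 2 cytokinesis genes, at 0.0091.

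Ube2c averaged 507 ± 161 CPM in the sham group and 730 ± 193 in OVX-PBS (n = 3 each), with a log2 difference of 0.52 ± 0.25 (SE; adjusted p = 0.913, edgeR). Bub1, a spindle checkpoint kinase, averaged 21.2 ± 5.21 against 16.0 ± 3.23 CPM (0.41), and Anln 43.997 ± 2.78 against 50.3 ± 11.1 CPM (-0.19). Among replication members the smallest p-values belonged to Mcm6 (88.8 ± 13.01 against 71.7 ± 13.03 CPM, 0.31), Rrm1, the large subunit of ribonucleotide reductase (131 ± 27.1 against 109 ± 15.5, 0.27), and Mcm4 (59.9 ± 11.4 against 49.7 ± 9.69, 0.27). All 95% intervals of the 44 members held 0. The medians for mitotic and replication members were 0.038 and 0.084 without OVX-PBS replicate 1, 0.044 and 0.079 without sham replicate 1, and 0.061 and 0.11 without both libraries poor in nervous transcripts. Markers of nervous tissue were lower in OVX-PBS for 9 of 9 genes (median -0.94) and those of erythroid precursors higher for 14 of 14 (0.27). Nervous sums were 114, 1182 and 1294 CPM in OVX-PBS replicates 1 to 3 and 899 to 1999 in sham. Erythroid sums were 4403, 2779 and 2933 CPM against 2128 to 3300. For both lists OVX-PBS replicates 2 and 3 thus lay within the sham range. Pro-B and pre-B cell markers were higher for 11 of 11 (1.02), chondrocyte markers for 6 of 7 (0.56) and osteoblast markers for 6 of 7 (0.27). Chondrocyte sums were 804, 380 and 393 CPM in OVX-PBS replicates 1 to 3 and 238 to 428 in sham. None of these markers was called. The part of these cells in the cell cycle difference was not tested.

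Hippuric acid was compared with PBS in ovariectomized mice. Group means differed little, and the OVX-HA libraries lay on both sides of OVX-PBS. The log2 difference was positive for 31 of 44 members (53.2% of all genes), with medians of 0.067 for mitotic and 0.033 for replication members and 0.014 for all genes. Averaged as log2 CPM over libraries, the class means were instead lower in OVX-HA, at 5.33 against 5.44 for mitotic and 5.85 against 5.96 for replication members. The sign thus depended on the scale of averaging. edgeR called 0 of 44 (0% of all genes), 0 had an unadjusted p below 0.05, and DESeq2 called 0 members and 0 of 21745 genes. Only Anln had every OVX-HA library above every OVX-PBS library (2.24% of all genes), at 50.6 ± 1.66 against 43.997 ± 2.78 CPM (0.20). Ube2c averaged 591 ± 82.2 against 730 ± 193 CPM (-0.31). Kif2c, a kinesin that takes microtubules apart, averaged 14.2 ± 10.6 against 12.5 ± 0.925 CPM (0.19), and the thymidylate synthase gene Tyms 23.0 ± 16.7 against 21.1 ± 2.97 (0.13). Rrm2 averaged 158 ± 118 against 144 ± 45.4 CPM (0.14) and Mcm3 62.3 ± 38.4 against 58.2 ± 9.87 (0.099).

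This result rests on OVX-HA replicate 2. Without it the medians were -0.64 for mitotic and -0.58 for replication members, 1 of 44 differences was positive, and 41 had an unadjusted p below 0.05. At that setting 13.02% of all genes had an unadjusted p below 0.05 and edgeR called 0 members, with a smallest adjusted p of 0.380. Without both libraries poor in nervous transcripts the medians were -0.51 and -0.45, with 34 members at an unadjusted p below 0.05, against 6.25% of all genes. There 0 members were called, with a smallest adjusted p of 0.682 (edgeR). Without OVX-PBS replicate 1 they were 0.23 and 0.19, and without OVX-PBS replicate 2 -0.029 and -0.086. Erythroid markers were higher in OVX-HA for 14 of 14 genes (median 0.14), with sums of 2175, 6742 and 2203 CPM in OVX-HA replicates 1 to 3 and 2779 to 4403 in OVX-PBS. OVX-HA replicates 1 and 3 thus lay below every OVX-PBS library. Nervous tissue markers were higher for 9 of 9 (0.63), with sums of 2020, 139 and 2000 CPM in OVX-HA replicates 1 to 3 and 114, 1182 and 1294 in OVX-PBS. Their part in the difference was not tested.

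For 3'(3'hydroxyphenyl) propionic acid against PBS the cell cycle genes had differences near 0, and averaged over members both OVX-PPA libraries lay within the range of OVX-PBS. The log2 difference was positive for 17 of 44 members (47.0% of all genes), with medians of -0.028 for mitotic, -0.0087 for replication members and -0.018 for all genes. edgeR called 0 of 44 (0% of all genes), 0 had an unadjusted p below 0.05, and DESeq2 called 0 members and 0 of 21745 genes. Anln alone was above every OVX-PBS library in both OVX-PPA libraries (11.6% of all genes), and Ube2c alone below (8.77%). Ube2c averaged 501 ± 4.60 (n = 2) against 730 ± 193 CPM (n = 3; -0.54 ± 0.29, SE; adjusted p = 1.00, edgeR). Anln averaged 53.5 ± 0.472 against 43.997 ± 2.78 CPM (0.28), and Ect2, which switches on RhoA for cytokinesis, 24.6 ± 0.0639 against 21.0 ± 3.74 (0.23). Among replication members, Hells differed by 0.13, Mcm7 by -0.062 and Mcm6 by -0.061. Without OVX-PBS replicate 1 the medians were 0.13 for mitotic and 0.14 for replication members, with 42 of 44 positive, and without OVX-PBS replicate 2 they were -0.11 and -0.12, with 6 positive. Erythroid markers had a median of 0.040 and nervous markers of 0.88 (9 of 9 higher).

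Zoledronic acid was compared with PBS in the same way. Every member had a lower group mean in OVX-ZA than in OVX-PBS, the median log2 difference was -0.56 for mitotic and -0.44 for replication members, and -0.037 for all genes, of which 43.8% were positive. For 39 of 44 members, 29 mitotic and 10 replication, every OVX-ZA library was below every OVX-PBS library, against 9.96% of all genes. These members move together, so they are not 39 separate observations. edgeR called 0 of 44 (0% of all genes), and 0 had an unadjusted p below 0.05 where 3.36% of all genes did. DESeq2 called 0 members and 32 of 21745 genes. The lowest difference was that of Cdca8, the borealin subunit of the chromosomal passenger complex (-0.72), and the one nearest 0 that of Anln (-0.11). All 95% intervals held 0. OVX-ZA library totals (11.9 to 25.1 M) reached lower than those of OVX-PBS (20.1 to 35.2 M), with overlap, and the part of depth was not tested.

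Kif20a, a kinesin of the central spindle, read 15.1, 15.1 and 15.3 CPM in OVX-ZA and 28.7, 19.1 and 25.4 in OVX-PBS (log2 difference -0.68 ± 0.36, SE; adjusted p = 0.899, edgeR). Cenpf, a kinetochore protein, averaged 26.9 ± 2.11 against 42.7 ± 8.23 CPM (n = 3 each; -0.66), and Top2a 110 ± 6.13 against 170 ± 27.9 (-0.63). In the replication class Mcm6 averaged 61.3 ± 7.09 against 88.8 ± 13.01 CPM (-0.53), Mcm2 51.6 ± 2.30 against 74.0 ± 15.1 (-0.52) and Rrm1 97.0 ± 3.97 against 131 ± 27.1 (-0.43). For each of these 6 genes, which were chosen by smallest p in this comparison, the OVX-ZA libraries lay below those of OVX-PBS without overlap (9.96% of all genes). By role the medians were -0.68 for Cdca8 and Birc5 of the chromosomal passenger complex, -0.66 for Mki67 and Top2a, and -0.63 for centromere and kinetochore genes. They were -0.61 for cyclins B and A and Cdk1, and -0.57 for the mitotic and checkpoint kinases, which include Aurkb of the passenger complex. They were -0.55 for spindle assembly and midzone genes, -0.53 for kinesins, -0.33 for ubiquitin-dependent mitotic exit and -0.27 for cytokinesis. The replication roles were at -0.46 for the MCM helicase, -0.43 for deoxynucleotide supply and -0.38 for Pcna and Hells. They were nearer 0 than every mitotic role except mitotic exit, which holds Ube2c, and cytokinesis, which holds Anln. The direction was the same for all 44 members without OVX-PBS replicate 1 (medians -0.39 and -0.30) and without both libraries poor in nervous transcripts (-0.38 and -0.29). In the latter fit 12 members had an unadjusted p below 0.05 (edgeR), where 3.89% of all genes did. It called 0 members and 6 of 21603 genes. In a fit of OVX-ZA and OVX-PBS alone, 40 members had an unadjusted p below 0.05 (edgeR), where 7.06% of all genes did. That fit called 0 members and 1 of 19480 genes (medians -0.51 and -0.39).

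OVX-ZA had the lowest group mean of the 5 groups for 43 of 44 members. Against sham, the members nevertheless overlapped, with every OVX-ZA library below every sham library for 0 members (5.17% of all genes). Sham replicates 2 and 3 lay above the OVX-ZA libraries in the mean over members and sham replicate 1 below all of them. Among the cell markers, erythroid genes were lower in OVX-ZA than in OVX-PBS for 14 of 14 (median -0.59), with sums of 2275 to 2342 against 2779 to 4403 CPM. Pre-B genes were lower for 11 of 11 (-0.84; 129 to 236 against 224 to 360 CPM). Neutrophil precursor genes were lower for 10 of 10 (-0.37), but their sums overlapped, at 1228 to 1607 against 1183 to 2540 CPM. General white blood cell genes had a median of -0.078. Osteoclast markers were higher for 7 of 7 (1.297; 1199 to 2241 against 663 to 807 CPM), and nervous tissue markers for 9 of 9 (0.61). The nervous sums were 695 to 1700 CPM in OVX-ZA against 114, 1182 and 1294 in OVX-PBS replicates 1 to 3, so replicates 2 and 3 lay within the OVX-ZA range. Osteoblast markers were lower for 6 of 7 (-0.74), with sums of 953 to 1599 against 2821 to 3856 CPM, without overlap. Markers of T and NK cells were higher for 9 of 10 (0.97). They summed to 37.5, 60.0 and 14.4 CPM in OVX-ZA and 16.3 to 24.5 in OVX-PBS, so OVX-ZA replicate 3 lay below every OVX-PBS library. Markers of germinal centre B cells and lymph node were higher for 8 of 8 (0.69). These summed to 74.4, 146 and 28.7 CPM in OVX-ZA and 40.1 to 42.4 in OVX-PBS, so 2 of the 3 OVX-ZA libraries were high. None of these was called, no marker of these lists was at 0 in every library, and their part in the lower cell cycle levels was not tested.

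**Figure D4:**
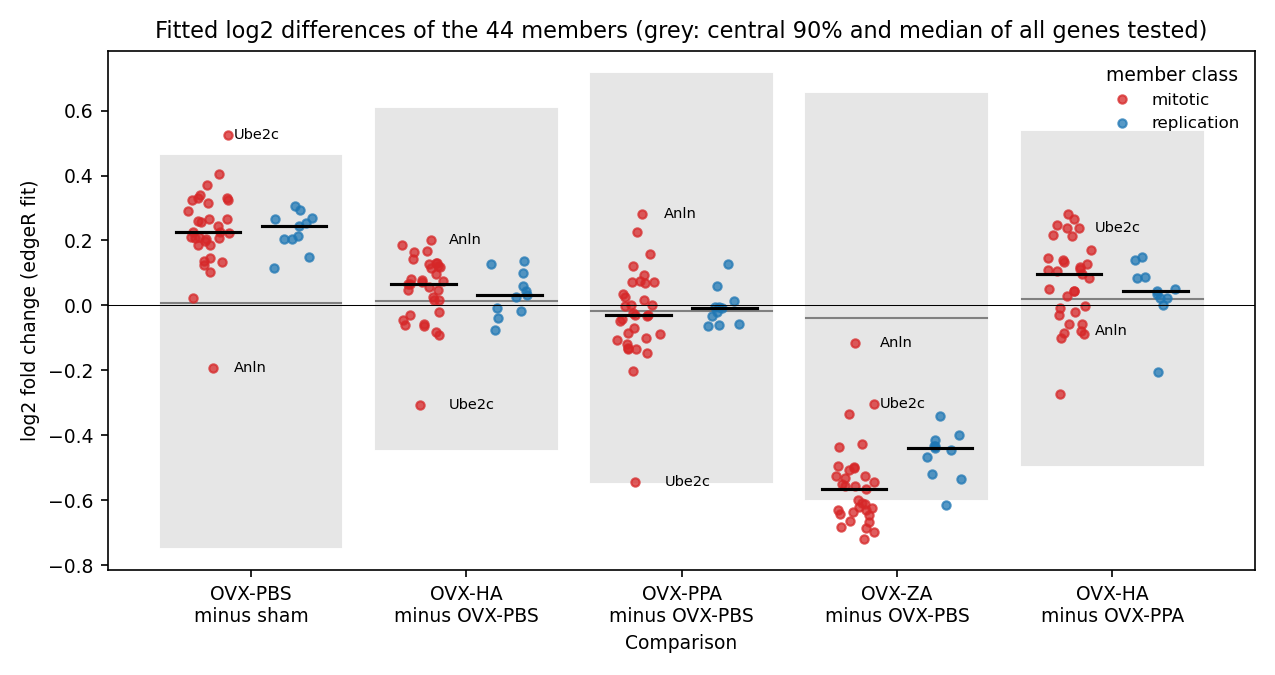
Each point is the fitted log2 difference of a member in 5 comparisons, red for mitotic and blue for replication members, with black bars at class medians and grey boxes for the central 90% and the median of all genes tested. All 44 points are below 0 for OVX-ZA minus OVX-PBS, and Ube2c and Anln lie apart from the other mitotic members.

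The compounds hippuric acid and 3'(3'hydroxyphenyl) propionic acid, which differ in the ring hydroxyl and the side chain, were compared directly as 1 pair. No dose is known, so whether doses matched is not known. The log2 difference, OVX-HA minus OVX-PPA, was positive for 32 of 44 members (55.3% of all genes), with medians of 0.098 for mitotic, 0.045 for replication members and 0.021 for all genes. As log2 CPM averaged over libraries, OVX-HA was instead lower, at 5.33 against 5.44 for mitotic and 5.85 against 5.97 for replication members. edgeR called 0 of 44 (0% of all genes), 0 had an unadjusted p below 0.05, and DESeq2 called 0 members and 0 of 21745 genes. Ube2c was the only member with every OVX-HA library above both OVX-PPA libraries (6.64% of all genes), and Anln the only one with every library below (3.64%). The 95% intervals were wide, for Ube2c from -0.38 to 0.85, for Aurka, the spindle pole kinase, from -0.60 to 1.10 and for Ect2 from -1.04 to 0.50. For Hells they ran from -0.91 to 0.50, for Tyms from -0.76 to 1.06 and for Rrm2 from -0.85 to 1.13. Without OVX-HA replicate 2 the medians were -0.66 and -0.64, and 42 members had an unadjusted p below 0.05, against 5.02% of all genes. There 0 members were called (smallest adjusted p = 0.895, edgeR). Without both libraries poor in nervous transcripts they were -0.66 and -0.63. The remaining OVX-HA libraries thus lay below OVX-PPA, and the direction between the compounds depended on 1 library.

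In the other 5 comparisons edgeR called 0 of 44 members, against 0% of all genes in 4 of them and 0.0046% (1 gene) for OVX-HA minus OVX-ZA, and 0 members had an unadjusted p below 0.05. OVX-PPA was above every OVX-ZA library for 43 of 44 members, Ube2c excepted, against 12.7% of all genes, with medians of 0.55 for mitotic and 0.46 for replication members. OVX-HA minus OVX-ZA had medians of 0.62 and 0.49, with 1 member, Anln, above without overlap (5.1% of all genes). Without OVX-HA replicate 2 these turned to -0.13 and -0.18, with 1 of 44 positive, and without both libraries poor in nervous transcripts to -0.12 and -0.17. OVX-HA minus sham had medians of 0.27 and 0.28, which were 0.076 and 0.12 without sham replicate 1, -0.41 and -0.35 without OVX-HA replicate 2, and -0.40 and -0.34 without both libraries. OVX-PPA minus sham had medians of 0.21 and 0.25, and 6 members had both OVX-PPA libraries above every sham library (7.13% of all genes). Without sham replicate 1 these medians were 0.067 and 0.097, with 27 of 44 positive, and without sham replicate 2 they were 0.38 and 0.39. OVX-ZA minus sham had medians of -0.34 and -0.23, with only Ube2c positive (0.22). Without sham replicate 1 they were -0.53 and -0.36, and without sham replicate 2 -0.15 and -0.052, with 4 positive. Comparisons that share a group are not independent of each other. In DESeq2 none of the 44 was called in these 5 comparisons, and 2 had an unadjusted p below 0.05 for OVX-HA minus OVX-ZA. Of all genes DESeq2 called 0 for OVX-HA minus sham and for OVX-PPA minus sham, and 15 for OVX-ZA minus sham. Its all-gene counts for OVX-HA and OVX-PPA minus OVX-ZA are not given here, so those 2 members stand without the share of all genes.

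Other genes of the cell cycle, 95 in 6 lists, were followed beside the members. For OVX-ZA minus OVX-PBS 0 of 95 were called, 3 were higher and 92 lower, with a median of -0.45. All 30 other mitotic genes were lower (median -0.55), among them Kifc1, a minus-end kinesin (-0.69), and Aspm, a spindle pole protein (-0.61). All 28 other replication genes were lower (-0.47), with Pold1, the catalytic subunit of DNA polymerase delta, at -0.61 and Dut, which keeps uracil out of DNA, at -0.63. The 10 genes of E2F factors and their DP partners were lower (-0.42), with E2f2 at -0.66 and the repressor E2f8 at -0.59. So were the 7 genes of MuvB, B-Myb and FOXM1 (-0.24; Foxm1 -0.57, Lin9 -0.40). Among 10 cyclins, kinases and kinase regulators of G1, 9 were lower (-0.27; Cks1b -0.60) and Ccnd1, cyclin D1, was higher (0.22). Of 10 CDK inhibitors and pocket proteins 8 were lower (-0.17), with Cdkn2c at -0.44 and Cdkn2d at -0.44.

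OVX-PBS minus sham gave 86 of these 95 higher and 9 lower (median 0.19, 0 called), among them Gins3 of the replicative helicase (0.47), Kif18a, which aligns chromosomes (0.49), and Lin9 (0.35). For OVX-HA minus OVX-PBS 66 were higher and 29 lower (0.068), for OVX-PPA minus OVX-PBS 40 and 55 (-0.042), and for OVX-HA minus OVX-PPA 74 and 21 (0.078), with 0 called in each. Cdkn2b, the inhibitor p15, had the smallest p of its list for OVX-PPA minus OVX-PBS (-0.89 ± 0.33, SE; unadjusted p = 0.019, adjusted p = 1.00, edgeR) at about 1 CPM. It read 0.977 and 0.648 CPM in OVX-PPA and 1.66, 1.40 and 1.41 in OVX-PBS, below without overlap (8.77% of all genes). The mean of these lists over libraries correlated with that of the members at 0.998 for other mitotic genes and 0.989 for other replication genes. The correlation was 0.985 for E2F and DP genes and 0.715 for CDK inhibitors and pocket proteins (0.190 in 12 libraries).

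Which cell types the cell cycle genes went with across libraries was described with 17 marker lists. The mean of the members correlated with that of 14 erythroid precursor markers at 0.980 in 14 libraries and 0.945 in 12. It correlated with osteoblast markers at 0.860 (0.672 in 12 libraries), megakaryocyte markers at 0.777 (0.595), chondrocyte markers at 0.675 (0.290) and pro-B and pre-B markers at 0.588 (0.526). White blood cell markers followed at 0.476 (0.545), stem and progenitor markers at 0.451 (0.605), neutrophil precursor markers at 0.365 (0.532) and mature neutrophil markers at 0.356 (0.467). Those with T and NK cell, muscle and nervous tissue markers were 0.063, -0.339 and -0.762, the last at -0.089 in 12 libraries. Mki67 alone correlated with the erythroid markers at 0.996. The points share libraries, depth and tissue mixture, and a correlation across them does not place the RNA in a cell type.

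Klf1, the master transcription factor of red cell precursors, read 37.6, 53.3 and 56.3 CPM in sham, 82.4, 50.005 and 48.9 in OVX-PBS, 38.8, 129 and 33.8 in OVX-HA, 61.9 and 48.2 in OVX-PPA, and 34.1, 35.1 and 35.7 in OVX-ZA. As for Mki67, OVX-HA replicate 2 was highest and OVX-PBS replicate 1 next. Set against the erythroid mean, the mean of the members averaged -1.57 ± 0.059 log2 (SD, n = 3) for OVX-ZA, -1.66 ± 0.19 (n = 2) for OVX-PPA, -1.66 ± 0.16 for OVX-HA, -1.61 ± 0.13 for OVX-PBS and -1.61 ± 0.14 for sham (n = 3 each). That difference ranged over 0.373 across 14 libraries, against 1.48 for the members and 1.73 for the erythroid markers. Set against white blood cell markers it ranged over 1.19. Relative to erythroid markers any pair of group means lay within the larger of their SDs, a description chosen after the values were seen.

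**Figure D5:**
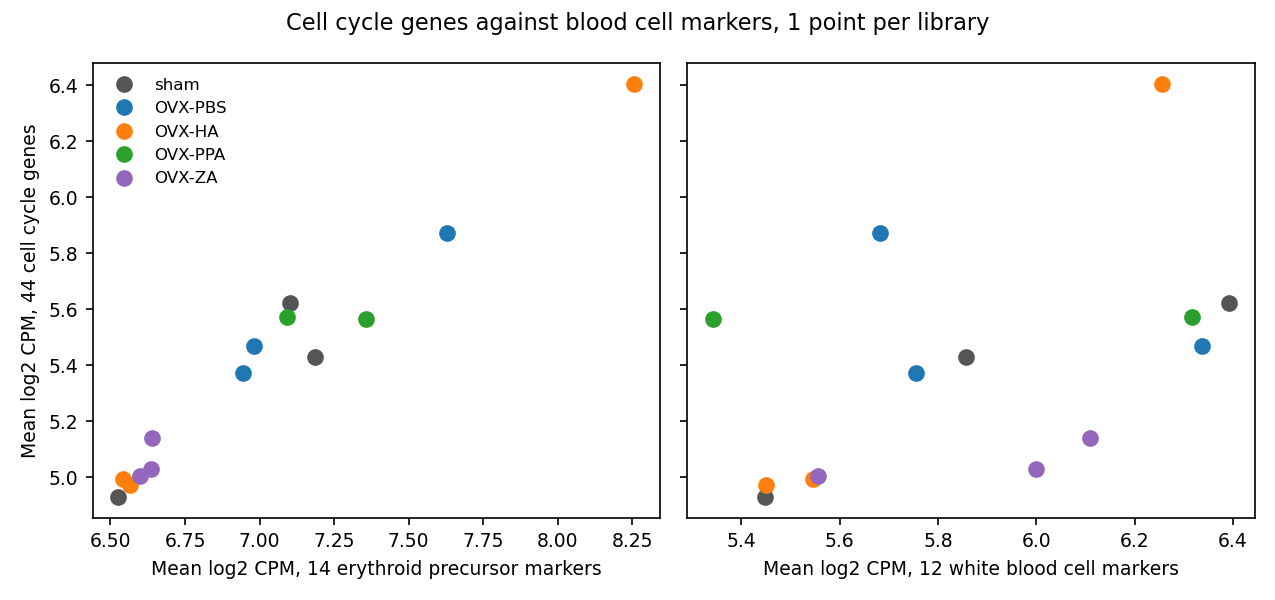
Each point is a library, with the mean log2 CPM of the 44 cell cycle genes on the vertical axis and that of 14 erythroid precursor markers (left) or 12 white blood cell markers (right) on the horizontal axis. The points lie near a line on the left (r = 0.980) and scatter on the right (r = 0.476).

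Of 15789 other genes with a mean of at least 2 CPM, the 12 most like the mean of the members correlated at 0.987 to 0.998 over 14 libraries. Incenp, the scaffold of the chromosomal passenger complex, was first (0.998, and 0.996 in 12 libraries). Ckap2 (0.991), Cdca2 (0.991), Uhrf1 (0.990), Ncapd2 (0.990), Pbk (0.990), Shcbp1 (0.990) and Tacc3 (0.987) were among those that followed, together with Ctse (0.990), Nfe2 (0.989) and Lbr (0.988). Among these 12, 5 were on the lists of other cell cycle genes and 7 on no list. Of the 100 most alike, 32 were on the cell cycle lists, 8 on a marker list and 60 on none. The lists do not hold every cell cycle gene, so a gene on no list may still act in the cell cycle. Incenp read 43.9, 71.3 and 62.8 CPM in sham, 84.7, 58.8 and 61.7 in OVX-PBS, 46.0, 128 and 44.7 in OVX-HA, 66.8 and 69.2 in OVX-PPA, and 45.8, 49.8 and 45.2 in OVX-ZA. OVX-HA replicate 2 was the highest, as for 42 of 44 members, and sham replicate 1 the lowest, as for 21 of them.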

How the data were processed

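Tibia poly(A) RNA was sequenced from a stranded mRNA kit as 75 nt single reads (Illumina NextSeq), per the labels' protocols. Among the tools of the submitters' processing notes are Bowtie2 2.2.5 and STAR 2.7.8a, besides CASAVA 1.8.1, Partek and the build mm10, all without roles. The sources used here give no counting tool, annotation or use of strand, so overlapping genes on opposite strands may share reads. The authors deposited estimated counts per gene symbol, not normalized, of which 20.7% differed from a whole number by over 0.01. These were rounded, filtered by group in edgeR, which left 21761 genes, and scaled by TMM, which assumes that most genes do not differ. A table of normalized values was not used, and 0 columns were left unmapped.

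All 14 libraries entered a single edgeR 4.0.16 quasi-likelihood fit (R 4.3.3) with a mean per group. The residual degrees of freedom were 9 and the coefficient of variation between replicates was 25.0%. Comparisons were two-sided, 10 in number, with BH adjustment over all genes at an FDR of 0.05. DESeq2 1.42.0, other scalings and filters, a replicate block and left-out libraries were the alternatives. Scripts were tested on simulated data. Log2 CPM used a prior count of 2. Exon lengths came from GENCODE vM21 and promoters from RefSeq. No p is given for a mean over members.

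The members and lists were chosen with earlier results of these data known. Values in every library are given for the member with the highest mean CPM in each of 12 roles. In 5 comparisons the 3 mitotic and 3 replication members with the smallest p are named, and from the lists of other cell cycle genes some of the 2 with the smallest p per list. The 12 genes most like the members were ranked by correlation. Other genes were named after their values were seen. Same-numbered libraries did not pair, as 8 of 26 such pairs across groups correlated above 0.1 (-0.554 to 0.425). No 2 libraries of a group were alike within sampling noise. Of the genes most like the members, 1 is not reported here.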

Additional observations from a re-analysis of the deposited data

How the results depend on the processing

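In every fit run, 0 of 44 members were called. These covered 10 comparisons, or with 1 library left out the 4 that use its group. Without both libraries poor in nervous transcripts, medians of mitotic and replication members were -0.51 and -0.45 for OVX-HA minus OVX-PBS and -0.66 and -0.63 for OVX-HA minus OVX-PPA. Leaving out 1 library gave -0.64 to 0.33 (mitotic) and -0.58 to 0.27 (replication) for the first, and -0.66 to 0.32 and -0.64 to 0.28 for the second. Medians stayed positive for OVX-PBS minus sham (0.038 to 0.36 mitotic, 0.079 to 0.36 replication) and negative for OVX-ZA minus OVX-PBS (-0.68 to -0.39 and -0.53 to -0.30), and took either sign for OVX-PPA minus OVX-PBS (-0.11 to 0.13 and -0.12 to 0.14). With a median over members the gap of mitotic minus replication genes was -1.10 for OVX-ZA, -0.98 for OVX-PPA, -1.02 for OVX-HA, -1.01 for OVX-PBS and -1.04 for sham.

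Without both libraries, positive differences went from 31 to 1 of 44 for OVX-HA minus OVX-PBS, from 17 to 43 for OVX-PPA minus OVX-PBS and from 32 to 1 for OVX-HA minus OVX-PPA. Among the 6 genes chosen by smallest p in each comparison, those that turned were, for OVX-HA minus OVX-PBS, Kif2c (-0.60), Tyms (-0.57), Rrm2 (-0.42) and Mcm3 (-0.43), for OVX-PPA minus OVX-PBS, Mcm7 (0.089) and Mcm6 (0.063), and for OVX-HA minus OVX-PPA, Aurka (-0.48), Tyms (-0.67) and Rrm2 (-0.71). With 1 library left out, Kif2c ranged from -0.64 to 0.48, Tyms from -0.66 to 0.41, Rrm2 from -0.67 to 0.43 and Mcm3 from -0.54 to 0.35 for OVX-HA minus OVX-PBS. Hells ranged from -0.095 to 0.32, Mcm7 from -0.15 to 0.086 and Mcm6 from -0.15 to 0.060 for OVX-PPA minus OVX-PBS. For OVX-HA minus OVX-PPA the ranges were -0.49 to 0.52 (Aurka), -0.67 to 0.013 (Hells), -0.67 to 0.42 (Tyms) and -0.71 to 0.43 (Rrm2). The cause was not tested. A group of OVX-PPA reduced to 1 library is assumed to vary like the others.

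With the replicate number as a replicate block, which the labels do not say pairs libraries, 0 members were called. Positive differences went from 31 to 11 of 44 for OVX-HA minus OVX-PBS and from 17 to 6 for OVX-PPA minus OVX-PBS. Of the 6 chosen genes, Tyms (-0.0029) and Mcm3 (-0.00015) for OVX-HA minus OVX-PBS and Hells (-0.00062) for OVX-PPA minus OVX-PBS turned direction, and medians for OVX-HA minus OVX-PBS were -0.045 and -0.057.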
